A study of Homo sapiens with 14 samples.

Results

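The DLK1-DIO3 imprinted domain was taken as the stretch of human chromosome 14 from base 101000000 to base 102100000 (hg19), 1.1 Mb that holds the genes DLK1, MEG3, RTL1, MEG8 and DIO3. Its members are the ATAC-seq peaks whose summit lies in that stretch, and 2659 of the 1971391 peaks in the 14 deposited lists did so. In ATAC-seq the Tn5 transposase inserts adapters where chromatin is open, and a peak is a place with many insertions. The stretch was chosen by its number of peaks, far higher in RH30 than in LHCN, so the difference between these lines in peak number, width and rank is given as a description with no test.

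The 14 libraries form 7 groups of 2. RH30, an alveolar rhabdomyosarcoma line that carries the PAX3-FOXO1 fusion transcription factor, was treated with 200 nM QC6352, an inhibitor of KDM4 histone demethylases, or with 0.1% DMSO. RH30 was also transduced with the hairpins shKDM4B-813 or shKDM4B-814 against KDM4B, or with the control hairpin shCtrl. LHCN, an immortalised human myoblast line, overexpressed PAX3-FOXO1 or carried an empty vector. Every condition lasted 72 h, and each library was made from 100000 cells. RH30 and LHCN are 1 line each, and the labels do not say whether the 2 libraries of a group came from separate cultures, so the spread between them may be technical. No annotation of the build was used here, so the lines were not checked against muscle marker genes and no peak is assigned to a gene.

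The labels and the files disagreed for the hairpin libraries. Peak names inside the 2 lists labelled shCtrl carried sh813, those in the lists labelled shKDM4B-813 carried sh814, and those in the lists labelled shKDM4B-814 carried shCtrl. The other 8 lists carried the group of their label. Hairpin libraries are therefore called by their labels ("labelled shCtrl"), and the main hairpin peak numbers and region counts are given under both groupings. By Jaccard index of shared regions over the genome, the DMSO libraries had a mean similarity of 0.530 to the libraries labelled shKDM4B-813, 0.572 to those labelled shKDM4B-814 and 0.447 to those labelled shCtrl. Within the domain these means were 0.365, 0.324 and 0.259.

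Imprinted genes are transcribed from one parental copy. In the DLK1-DIO3 domain the paternal copy expresses the protein-coding genes DLK1, a Notch-like membrane protein that restrains differentiation, RTL1, a retrotransposon-derived protein of placenta and fetal muscle, and DIO3, an enzyme that inactivates thyroid hormone. The maternal copy expresses MEG3 and MEG8, long noncoding RNAs, together with large clusters of snoRNAs and miRNAs. The RefSeq table places 122 genes from DLK1 to DIO3, among them 54 miRNA genes, 47 snoRNA genes and 15 long noncoding RNA genes. DLK1, MEG3, RTL1, MEG8 and DIO3 follow each other in this order, and WDR25 and BEGAIN come before DLK1. Genes were not placed along the stretch. A bin or region near its start therefore need not lie between DLK1 and DIO3.

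RefSeq promoters (GRCh38.p14, chromosome 14, 250 bases before to 50 bases after the start) were at hand for MEG3, RTL1 and DIO3. They are shown because they are the starts of genes that define the domain, with CG dinucleotides in capitals and RTL1 read from the minus strand. For MEG3, the first of 3 listed starts is shown.
MEG3: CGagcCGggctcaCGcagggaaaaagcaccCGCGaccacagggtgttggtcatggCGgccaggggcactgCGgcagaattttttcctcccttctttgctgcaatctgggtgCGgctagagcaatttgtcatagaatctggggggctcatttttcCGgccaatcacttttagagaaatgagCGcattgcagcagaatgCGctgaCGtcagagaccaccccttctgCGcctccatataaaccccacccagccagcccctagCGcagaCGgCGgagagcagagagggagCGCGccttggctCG
RTL1: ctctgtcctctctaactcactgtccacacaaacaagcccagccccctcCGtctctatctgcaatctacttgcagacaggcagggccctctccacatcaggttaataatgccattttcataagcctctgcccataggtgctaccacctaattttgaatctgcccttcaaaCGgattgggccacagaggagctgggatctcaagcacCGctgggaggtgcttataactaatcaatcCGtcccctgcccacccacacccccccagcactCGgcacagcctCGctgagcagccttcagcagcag
DIO3: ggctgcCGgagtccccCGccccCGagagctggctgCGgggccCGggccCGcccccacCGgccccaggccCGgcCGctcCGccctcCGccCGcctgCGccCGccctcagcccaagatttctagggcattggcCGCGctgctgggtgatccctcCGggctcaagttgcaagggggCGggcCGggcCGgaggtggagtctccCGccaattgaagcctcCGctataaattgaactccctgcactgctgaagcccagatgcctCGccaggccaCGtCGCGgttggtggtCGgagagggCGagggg
The MEG3 promoter holds 19 CG dinucleotides, the RTL1 promoter 6 and the DIO3 promoter 28, beside a median of 14 over 35116 RefSeq promoters. None of these windows holds CAGCTG, an E-box sequence that reads the same on both strands, which 17.9% of all promoters of that length hold. Of the miRNAs, miR-376 shows how the cluster is built from near copies. Its 3p arms are given with the seed, bases 2 to 8, in capitals.
hsa-miR-376a-3p: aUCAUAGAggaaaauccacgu
hsa-miR-376b-3p: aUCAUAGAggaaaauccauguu
hsa-miR-376c-3p: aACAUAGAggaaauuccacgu
miR-376a-3p and miR-376b-3p share their seed, and miR-376c-3p has another. Over the 94 mature miRNAs of the stretch with a sequence, 10 seeds were shared by 2 or more. No coordinate links these sequences to the peaks, because the builds differ.

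The domain held more peaks in every RH30 library than in any LHCN library. Lists differed in length, so each was cut to the 93488 strongest peaks by −log10 q, the length of the shortest list; 1414 peaks of the domain were kept. In RH30 the domain then held 96 and 106 peaks (QC6352), 92 and 89 (DMSO), 55 and 104 in the libraries labelled shKDM4B-813, 122 and 165 in those labelled shKDM4B-814, and 231 in each library labelled shCtrl. In LHCN it held 37 and 40 peaks with PAX3-FOXO1 and 22 and 24 with vector. RH30 averaged 129.1 peaks and LHCN 30.8, a ratio of 4.20. DMSO alone against vector alone gave 90.5 and 23 peaks, a ratio of 3.93.

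The stretches of equal length on either side differed less. The flank before the domain averaged 171.5 peaks in RH30 and 73.8 in LHCN, a ratio of 2.33. The flank after it averaged 77.8 and 52.2, a ratio of 1.49, and the rest of chromosome 14 had a ratio of 1.31. Over 2286 windows of the same length across the genome the median ratio was 0.779, and 68 windows had a higher ratio than the domain, with 20 more holding no LHCN peak. On chromosome 14, 2 of 73 windows were higher. All RH30 libraries were above all LHCN libraries in 12.3% of windows, a pattern the choice of the domain used.

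The RH30 excess was smaller among strong peaks. Among peaks with −log10 q of 10 or more, the domain held 43.5 peaks on average in RH30 and 44.5 in LHCN, so that the direction turned. LHCN lists held 123409 to 139986 such peaks and RH30 lists 43219 to 77239. Per 10000 such peaks the domain held 4.38 to 18.9 in RH30 and 2.66 to 4.29 in LHCN. Among the 50000 strongest peaks of each list it held 38.3 in RH30 and 13.2 in LHCN.

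**Figure D1:**
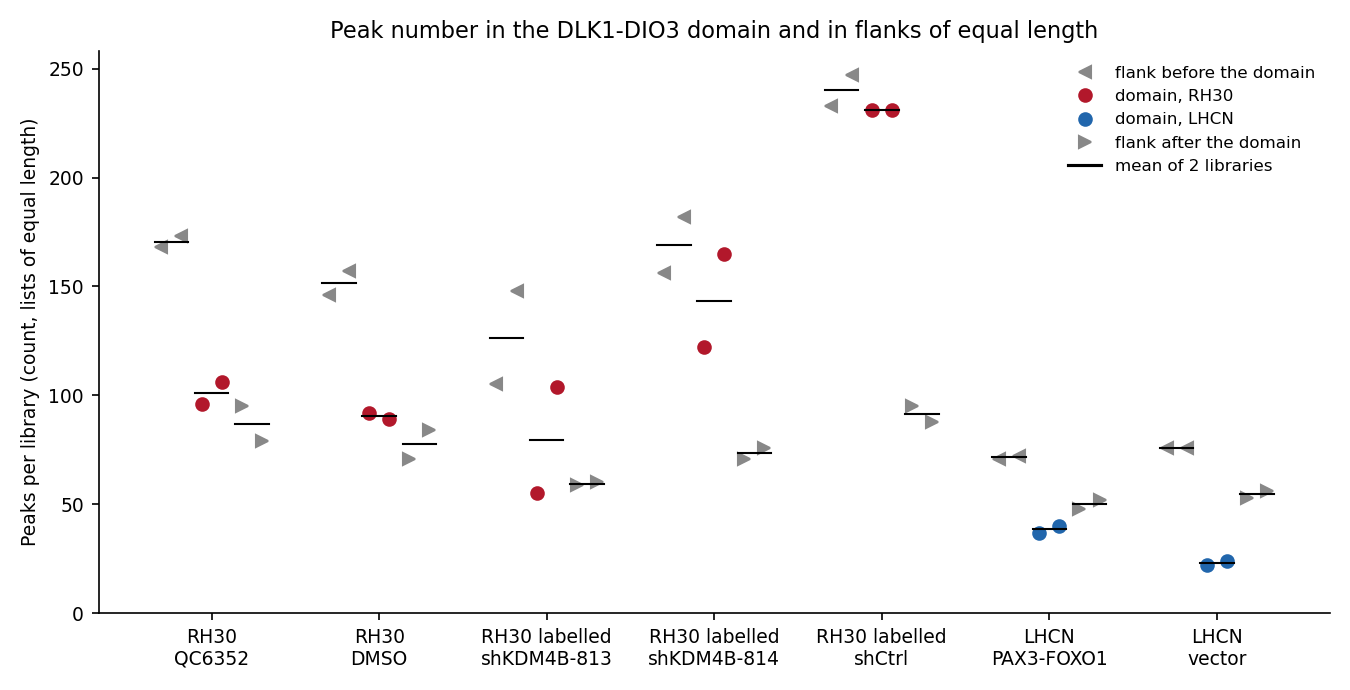
Peaks per library (count, lists of equal length) in the domain (circles) and in flanks of equal length before and after it (triangles), with the mean of 2 libraries as a line. All RH30 libraries lie above 54 peaks in the domain and all LHCN libraries at 40 or below.

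Peaks of the domain ranked low within their lists, and their width against the list differed between libraries. Their median width was 320 and 637.5 bases with QC6352, 352 and 408 with DMSO, 488 and 481 labelled shKDM4B-813, 325.5 and 283 labelled shKDM4B-814, and 532 and 637 labelled shCtrl. In LHCN it was 487 and 381 bases with PAX3-FOXO1 and 444 and 424.5 with vector. The lines thus overlapped, with group averages of 446.4 bases in RH30 and 434.1 in LHCN. Domain peaks were wider than those of their own whole list in the libraries labelled shCtrl (list medians 388 and 408 bases), in those labelled shKDM4B-813 (371 and 361) and in QC6352 library 2 (465). In QC6352 library 1 and the DMSO libraries the list medians, 336, 362 and 398 bases, lay near those of the domain, as did 318 and 307 in the libraries labelled shKDM4B-814. LHCN lists had medians of 403 to 415 bases.

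Peaks covered more of the domain in RH30. They covered 3.50% and 9.29% of it with QC6352, 4.36% and 5.08% with DMSO, 2.89% and 5.17% labelled shKDM4B-813, 4.57% and 5.60% labelled shKDM4B-814, and 14.02% and 17.4% labelled shCtrl. In LHCN they covered 1.86% and 1.93% with PAX3-FOXO1 and 0.974% and 1.06% with vector. Wide peaks of 1 kb or more numbered 3 and 34 with QC6352, 9 and 13 with DMSO, 33 and 60 labelled shCtrl, and at most 9 in the other hairpin libraries, against 4 and 6 with PAX3-FOXO1 and 1 in each vector library. The stretch was chosen for its number of peaks, so nothing is read from these counts against LHCN. The QC6352 libraries lay on either side of both DMSO libraries in the count of wide peaks. Wide peaks were 9.78% and 14.61% of domain peaks with DMSO, beside 11.85% and 14.99% of the lists, so there was no excess. With QC6352 the shares were 3.125% and 32.08%, beside 8.38% and 18.96%. Labelled shCtrl they were 14.29% and 25.97%, beside 11.02% and 12.8%. The other hairpin libraries had 3.03% to 8.65%, beside 4.29% to 7.44%. With PAX3-FOXO1 they were 10.81% and 15%, beside 10.46% and 9.66%, and with vector 4.55% and 4.17%, beside 10.59% and 11.31%.

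Rank was expressed as the percentile of a peak within its list, where 100 is the strongest. The median percentile of domain peaks was 17.9 and 22.7 with QC6352, 23.4 and 29.0 with DMSO, 39.4 and 22.1 labelled shKDM4B-813, 16.8 and 22.1 labelled shKDM4B-814, and 34.1 and 37.1 labelled shCtrl. LHCN peaks of the domain had 39.5 and 35.7 with PAX3-FOXO1 and 45.1 and 34.9 with vector. Every one of these medians lies below 50, the middle of a list. The strongest domain peak still reached at least 95.3 in each library, and 1 to 8 peaks per library were in the top 10% of their list.

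**Figure D2:**
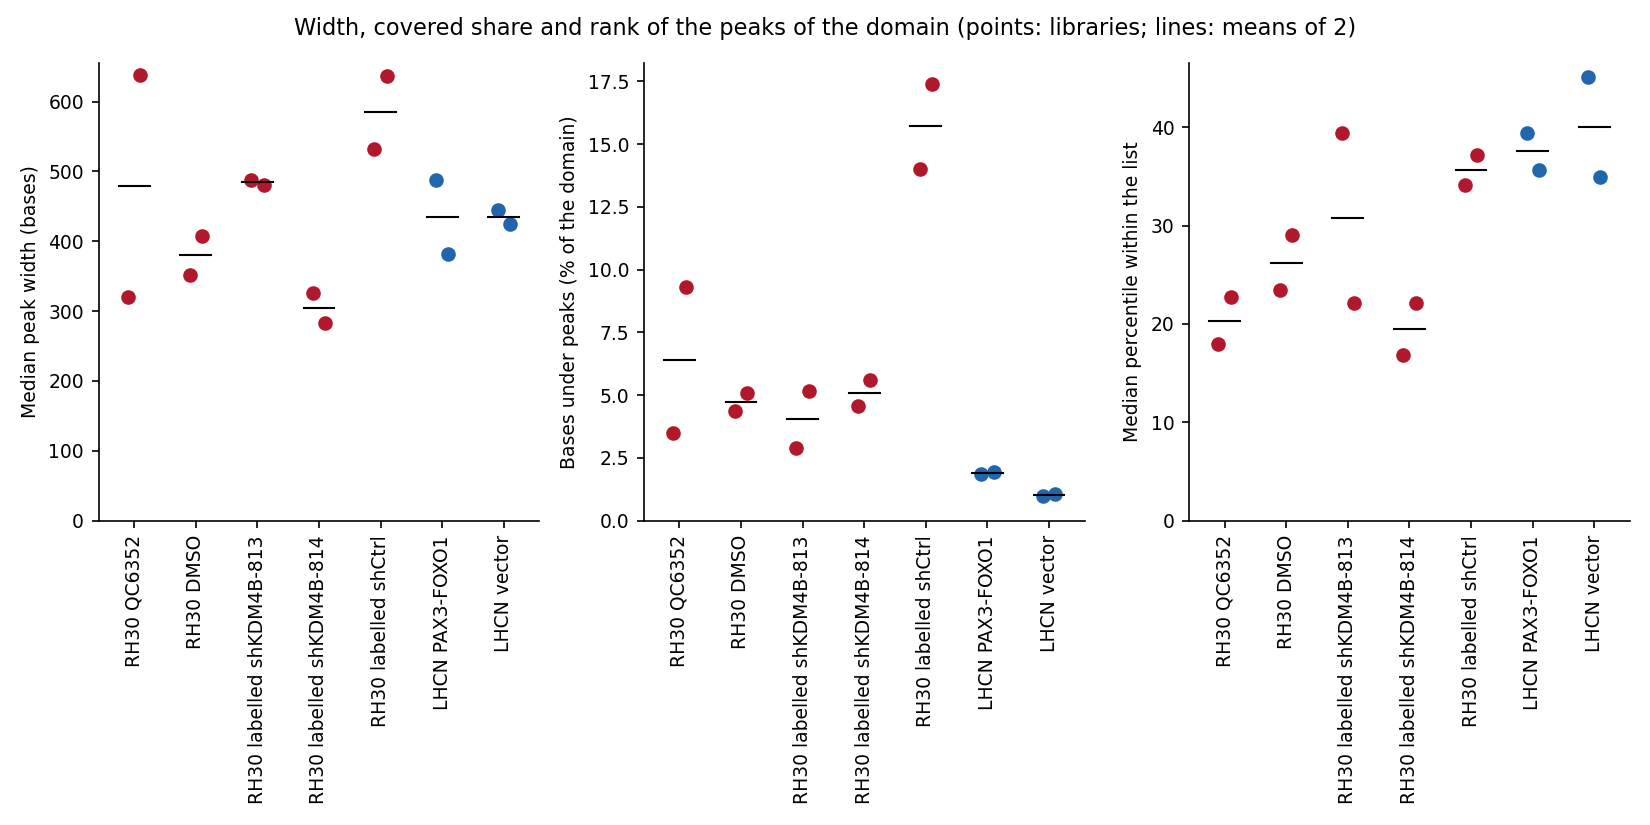
Median width in bases, bases under peaks as percent of the domain and median percentile within the list, per library (points) and as the mean of 2 (lines). Widths overlap between lines, covered shares do not, and every median percentile lies below 50.

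Near the limits of the stretch, the first peaks inside began 137 to 442 bases after the low limit by summit, at percentiles from 0.886 to 79.6. The last peaks outside it lay 323 to 47091 bases before, at percentiles from 3.04 to 68.4. At the high limit the last summit inside was 3367 to 28541 bases away and the first outside 894 to 97759 bases away.

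Peaks lay unevenly along the domain. Over RH30 libraries, 100 kb bins averaged from 2.3 to 28.7 peaks. The highest averages were in the first, with 28.7 (9 to 50), and the second, with 23.9 (13 to 51). The order differed between libraries, since the DMSO libraries held 11 and 9 peaks in the first bin, 16 and 21 in the second and 15 and 13 in the third. The poorest were the bin at 400 to 500 kb, with 2.3 (0 to 4), and the bin at 800 to 900 kb, with 3.5 (1 to 7). LHCN bins averaged 0 to 8.5 peaks, with the richest at 200 to 300 kb (8.5) and at 100 to 200 kb (7.25). No LHCN library had a peak at 600 to 700 kb or at 900 to 1000 kb, where RH30 averaged 7.0 and 7.9.

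The bin at 400 to 500 kb did not follow the rest, since it held 2.3 peaks in RH30 and 2.5 in LHCN. The first 300 kb held 50.8% of the RH30 peaks and 65.0% of the LHCN peaks. The last 600 kb held 35.4% and 16.3%. There, RH30 libraries had 24 and 36 peaks with QC6352, 37 and 30 with DMSO, 13 and 30 labelled shKDM4B-813, 37 and 55 labelled shKDM4B-814, and 90 and 105 labelled shCtrl. LHCN libraries had 8 and 8 with PAX3-FOXO1 and 2 and 2 with vector.

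**Figure D3:**
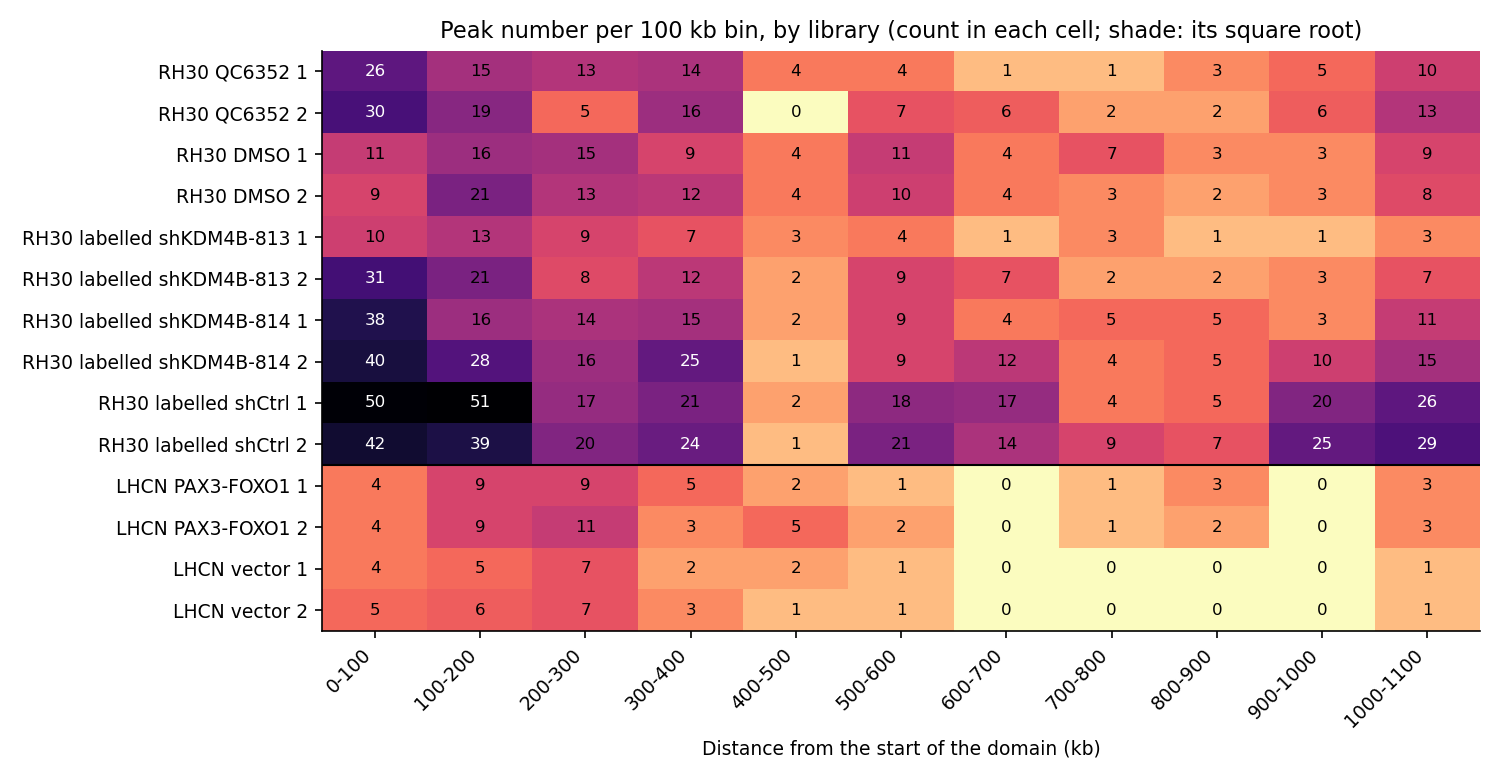
Number of peaks in each 100 kb bin (distance from the start of the domain in kb) in every library, with lists of equal length; a darker shade means more peaks. The first bin holds 9 to 50 peaks in RH30 and 4 or 5 in LHCN.

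Merging overlapping peaks of the 14 lists gave 343 regions in the domain. Of these, 301 held a peak in RH30 only, 7 in LHCN only and 35 in both lines. Regions seen in 1 RH30 library and in no LHCN library numbered 142, or 41.4%, beside 26.3% over the genome. Regions seen in libraries labelled shCtrl only numbered 84, or 24.5%, beside 9.48%. Over all 243113 regions of the genome, 51.2% were RH30 only, beside 87.8% in the domain. LHCN only were 17.5%, beside 2.04% in the domain, and in both lines 31.4%, beside 10.2%. The choice of the domain favours this order. A peak in all 14 libraries occurred at 9 domain regions, 2.62% of them, beside 9.69% over the genome. Regions with a peak in all 10 RH30 libraries and none in LHCN numbered 3, or 0.875% of domain regions, beside 1.73% over the genome. Libraries of a group shared fewer regions here than over the genome, with a Jaccard index of 0.336 and 0.548 for QC6352, 0.407 and 0.651 for DMSO, 0.800 and 0.819 for PAX3-FOXO1, and 0.840 and 0.855 for vector.

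**Figure D4:**
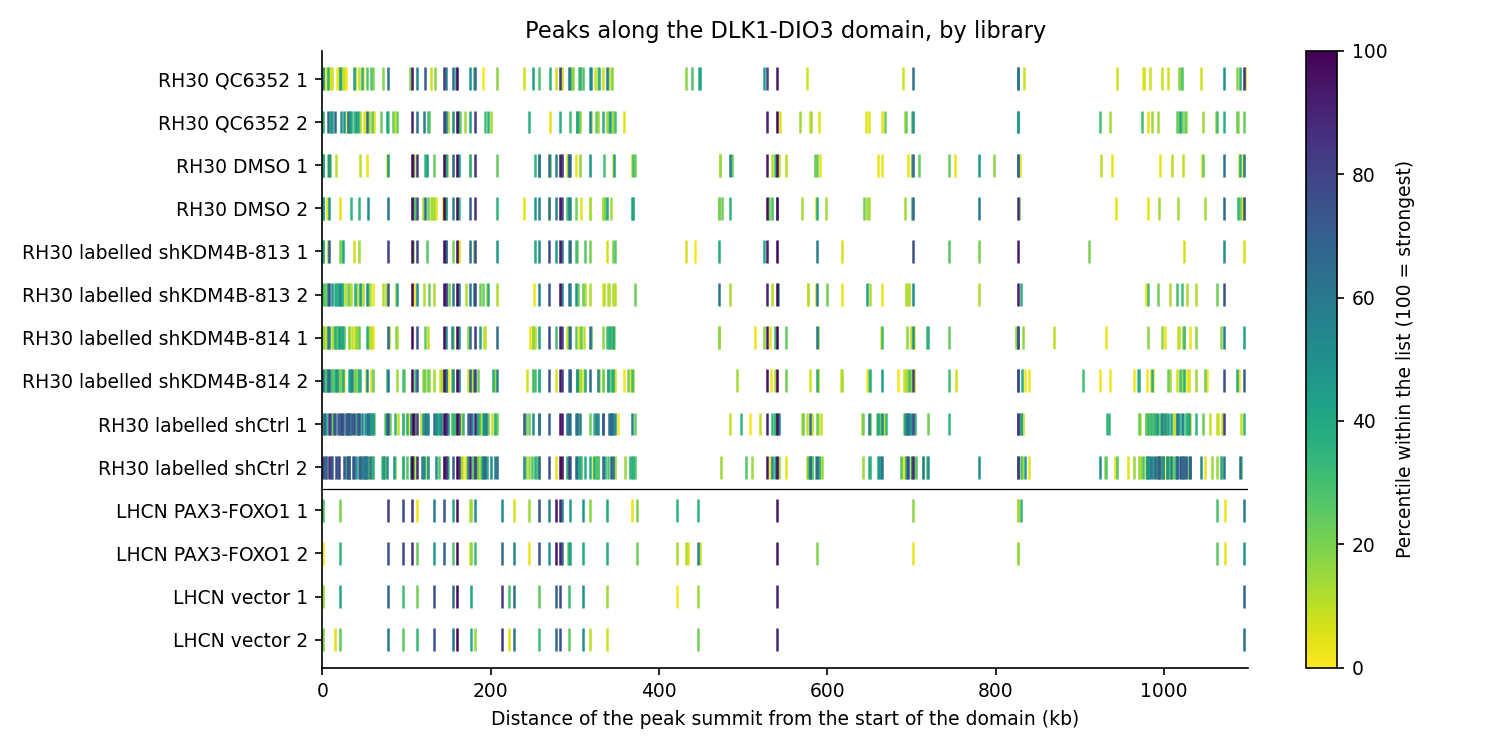
Each tick is a peak of the lists of equal length, placed by its summit (kb from the start of the domain) and coloured by percentile. Strong peaks recur at the same places over the RH30 libraries, between clusters of weak peaks that differ between libraries and are densest in those labelled shCtrl.

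The strongest RH30 region lay at chr14:101103990-101107818, 104 kb into the domain. Its percentiles were 93.7 and 90.6 with QC6352, 99.1 and 99.0 with DMSO, 97.9 and 99.1 labelled shKDM4B-813, 97.9 and 99.1 labelled shKDM4B-814, and 99.3 and 99.5 labelled shCtrl. In LHCN it had 84.1 and 84.5 with PAX3-FOXO1, while neither vector list of equal length kept a peak. The deposited vector lists held weak peaks there, at percentiles of 10.8 and 14.5, against 91.5 and 91.5 with PAX3-FOXO1. QC6352 and vector libraries are therefore the low ones at this region, and neither pair overlaps its comparison group.

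The widest region in RH30, at chr14:101143403-101149152, followed the same order. It had percentiles of 82.4 and 80.4 with QC6352 and 98.0 and 97.8 with DMSO. With PAX3-FOXO1 it had 72.8 and 67.7, and no vector peak was kept. Its widest peak measured 1471 and 1564 bases with QC6352, against 3225 and 2866 with DMSO.

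Further regions were shared by the lines. At chr14:101158488-101162006, percentiles were 96.6 and 96.1 with QC6352, 97.6 and 98.0 with DMSO, 95.3 and 96.8 with PAX3-FOXO1 and 97.6 and 98.2 with vector. This was the strongest LHCN region of the domain, with an authors' fold over background of 86.9 and 95.4 with vector. The region at chr14:101539268-101541926 also had a peak in all 14 libraries, at percentiles of 93.2 to 99.2 in RH30 and 88.9 to 94.8 in LHCN. So did chr14:101281836-101282842, at 36.6 to 97.3 in RH30 and 73.1 to 90.4 in LHCN, and chr14:101111375-101112479, at 51.1 to 87.1 and 2.51 to 32.6.

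One of the strong regions was seen in RH30 and not in LHCN. At chr14:101527516-101528903 all RH30 libraries had a peak, at percentiles of 80.9 to 96.4, and no deposited LHCN list held one. The remaining strongest regions were chr14:101179636-101181933, with a median RH30 percentile of 83.1, chr14:101825027-101828054, with 81.6, and chr14:101283707-101285136, with 78.5 and a peak in 9 of 10 RH30 libraries. Among wide regions, chr14:101012856-101017793 had a median widest peak of 1355.5 bases over the 8 RH30 libraries with a peak. It was not wide throughout, with 643 and 4426 bases with QC6352, and 245 and no kept peak with DMSO. Labelled shCtrl it had 3292 and 4812 bases, and its median RH30 percentile was 36.7.

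Few regions were seen in LHCN only. In the lists of equal length they made up 2.04% of domain regions, beside 17.5% over the genome. Regions in all 4 LHCN libraries and no RH30 library made up 0.875%, beside 5.65%. Of 22 regions with a peak in at least 3 LHCN libraries, the 10 strongest include chr14:101213253-101213858, at percentiles of 51.6 and 65.9 with PAX3-FOXO1 and 82.7 and 84.9 with vector, and chr14:101227809-101228179, at 5.92 and 54.1 with PAX3-FOXO1 and 63.2 and 60.5 with vector. No deposited RH30 list held a peak at either. Both were lower with PAX3-FOXO1 than with vector in each library. The region at chr14:101131617-101132497 had 57.9 and 46.2 with PAX3-FOXO1 and 75.2 and 73.5 with vector, and 4 of 10 RH30 libraries kept it. It was not LHCN only, since all deposited RH30 lists but those of QC6352 library 1 and labelled shKDM4B-814 library 1 held a peak there.

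**Figure D5:**
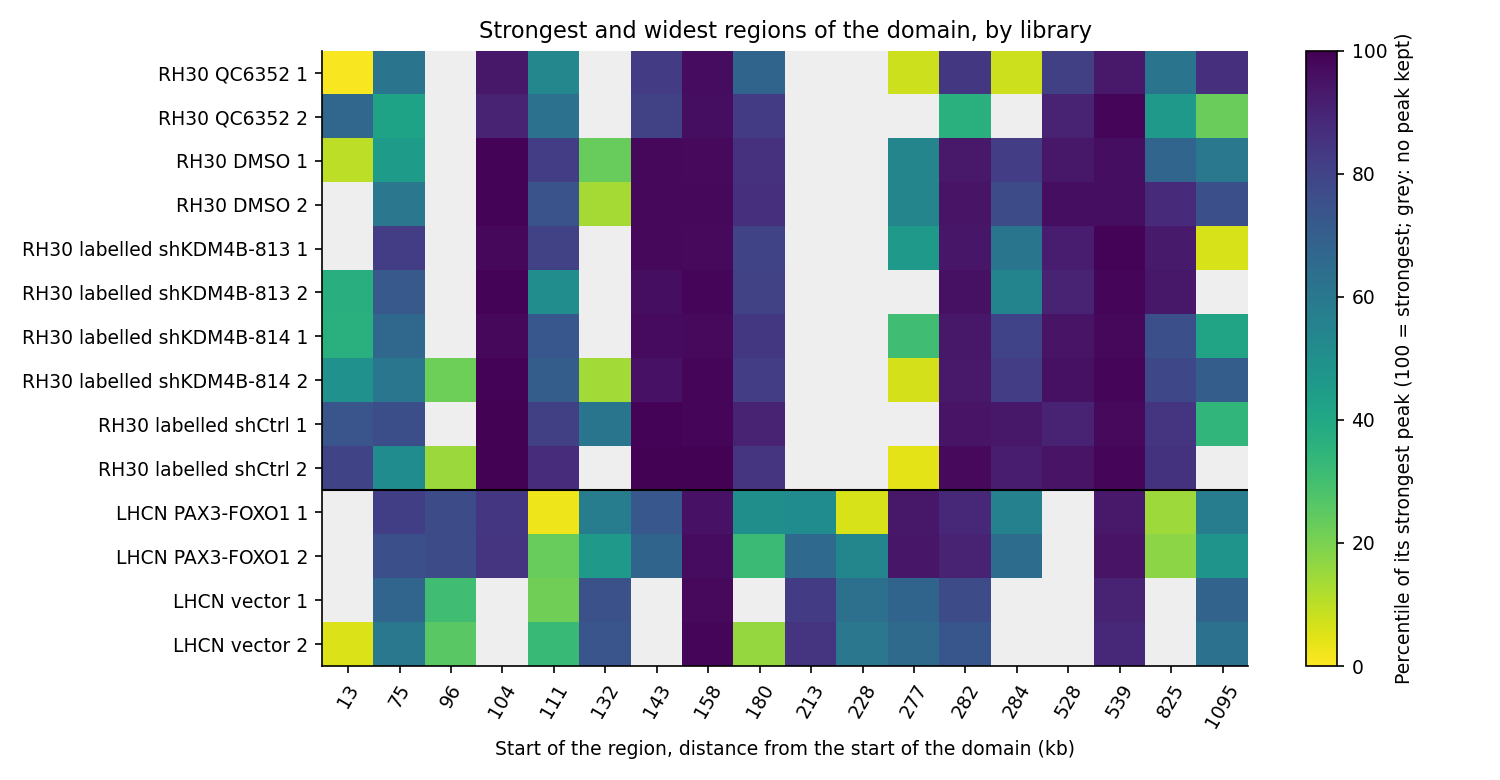
Percentile of the strongest peak (100 is the strongest, grey is no peak kept) of the named regions in every library, ordered by distance from the start of the domain in kb. Regions at 104, 143, 284 and 825 kb are grey with vector and coloured with PAX3-FOXO1.

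PAX3-FOXO1 in LHCN went with more peaks in the domain. The 37 and 40 peaks with PAX3-FOXO1 and the 22 and 24 with vector did not overlap, a difference of 15.5 peaks and a ratio of 1.67. A split of 2 against 2 allows no p below 0.333, which is what the exact two-sided permutation test gave. All PAX3-FOXO1 libraries were above all vector libraries in 32.9% of the 2286 windows, so that the order by itself is common. The size was less common, since 128 windows had a higher ratio and the median over windows was 0.986. The domain was chosen for few LHCN peaks, and a ratio over a low vector count is more easily large. Windows were not matched for this, so nothing is read from the rank of the ratio. The flanks did not show it, with 71 and 72 peaks with PAX3-FOXO1 and 76 and 76 with vector before the domain, and 48 and 52 against 53 and 56 after it.

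Of the 10 strongest RH30 regions, 4 had a kept peak with PAX3-FOXO1 (both libraries) and none with vector. They lay at 104, 143, 284 and 825 kb. Of the 21501 regions over the genome with a median RH30 percentile at least that of the weakest of these 10, 73.7, 7.16% did so. The domain was chosen for few LHCN peaks, which favours regions with none in vector, so nothing is read from this difference. The one at 284 kb had percentiles of 55.9 and 64.7 with PAX3-FOXO1, beside 7.48 and none with QC6352 and 81.7 and 77.2 with DMSO in RH30. The deposited vector lists held weak peaks at the first 3 in both libraries, and at 825 kb in vector library 1 with an authors' fold of 3.57, against 8.52 and 11.2 with PAX3-FOXO1.

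At the longer LHCN lists of 170390 peaks, 18 of 120 domain regions were gained, meaning that each PAX3-FOXO1 list held a peak and no vector list did. This is 15.0%, beside a background of 8.14% of all regions. Regions lost in the same sense numbered 8, or 6.67%, beside a background of 8.44%. The background was not matched for few LHCN peaks, for which the domain was chosen, so these shares are given as a description. The strongest gained were chr14:101373579-101373902, chr14:101826670-101827188, chr14:101245232-101245552, chr14:101825721-101826437 and chr14:101291345-101291657, with lowest percentiles of 56.0 to 37.8. All 18 gained regions and 4 of the 8 lost ones overlapped a peak of some deposited RH30 list, beside 54.3% and 21.2% over the genome. Both shares are raised by the choice of a stretch rich in RH30 peaks, so nothing is read from them. The strongest lost were chr14:101129647-101129866, at a lowest percentile of 26.1, and chr14:101604381-101604657, at 23.5. The gained count was 6 among the 50000 strongest peaks, for which no genome-wide share is given.

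Among the 20 domain regions with a peak in all 4 LHCN libraries, 9 had a higher percentile in both PAX3-FOXO1 libraries than in both vector libraries and 8 a lower one. The background was 27.6% higher and 40.4% lower over 65388 such regions. At chr14:101276801-101278020 percentiles were 93.4 and 93.8 with PAX3-FOXO1 and 67.7 and 65.6 with vector. At chr14:101095969-101096594 they were 76.9 and 77.3 with PAX3-FOXO1 and 30.7 and 25.8 with vector. Both regions had no peak or a lower percentile in RH30, with 7 and 2 of 10 libraries keeping one.

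QC6352 libraries of RH30 held slightly more domain peaks than DMSO libraries. The counts were 96 and 106 with QC6352 and 92 and 89 with DMSO, a difference of 10.5 peaks (exact two-sided permutation p = 0.333, the smallest possible). QC6352 was above DMSO in both libraries in 14% of windows, and below it in 37.2%. A ratio higher than that of the domain, 1.12, was seen in 481 of 2286 windows. The flank before the domain had the same order, with 168 and 173 peaks against 146 and 157. In the flank after it the groups overlapped, at 95 and 79 against 71 and 84. The direction turned to −4.0 among the 50000 strongest peaks and to −4.5 with −log10 q of 10 or more. Within the first 100 kb the groups stood apart, at 26 and 30 peaks for QC6352, against 11 and 9 for DMSO. The hairpin libraries there held 10 and 31 (labelled shKDM4B-813), 38 and 40 (shKDM4B-814) and 50 and 42 (shCtrl). At 500 to 600 kb the order was opposite, with 4 and 7 against 11 and 10. The groups also stood apart at 300 to 400, 700 to 800, 900 to 1000 and 1000 to 1100 kb. Such separation was thus common among the bins, and nothing is read from single bins.

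Regions common to all RH30 libraries had lower percentiles with QC6352 more often than higher ones. Among the 20 domain regions with a peak in all 10 RH30 libraries, 11 had a lower percentile in both QC6352 libraries than in both DMSO libraries and 0 a higher one. Over all 31796 such regions the background was 34.2% lower and 19.8% higher. With 2 libraries a group no p below 0.333 can be reached at a region. The region at chr14:101281836-101282842 had 83.9 and 36.6 with QC6352 and 93.2 and 94.7 with DMSO, so its 2 treated libraries lay far apart. At chr14:101527516-101528903 percentiles were 80.9 and 90.1 with QC6352 and 93.4 and 96.4 with DMSO.

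Gained regions numbered 13 of 257 (5.06%, beside a background of 6.45%), and lost regions 11 (4.28%, beside 7.22%). Of the gained ones, 10 lay in the first 500 kb, and of the lost ones 3. In the lists of equal length, that stretch held 72 of 96 and 70 of 106 domain peaks with QC6352. With DMSO it held 55 of 92 and 59 of 89. Gained regions thus lay there about as often as QC6352 peaks in general, and lost regions less often than DMSO peaks. The calls used longer lists, and neither position was tested. In 5 of the 11 lost regions a deposited QC6352 list held a weaker peak. The strongest gained were chr14:101304139-101304599, at a lowest percentile of 31.3, and chr14:102017922-102018528, at 27.0. The strongest lost were chr14:101779641-101779956, at 51.0, chr14:101483612-101483857, at 42.0, and chr14:101252416-101252809, at 41.4. No gained region was left among the 50000 strongest peaks or with −log10 q of 10 or more, for which no genome-wide share is given.

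The hairpin libraries spanned the widest range of peak numbers. By label, the domain held 55 and 104 peaks with shKDM4B-813 and 122 and 165 with shKDM4B-814, against 231 and 231 with shCtrl. The difference was −151.5 for shKDM4B-813 and −87.5 for shKDM4B-814 (exact two-sided permutation p = 0.333 each, the smallest possible). For both hairpins together it was −119.5 (exact permutation p = 0.0667, the smallest that 15 splits allow; adjusted by Benjamini-Hochberg over 6 values, 0.300). Against the DMSO libraries in place of shCtrl the direction turned for shKDM4B-814, to 53, and for both hairpins, to 21. Windows in which every shKDM4B-813 library was below both shCtrl libraries made up 20.5% of all, and windows above 70.1%. For shKDM4B-814 these were 18.9% and 69.3%, and for both hairpins 17.7% and 65.7%. Of 2286 windows, 31 had a lower ratio to shCtrl than the domain for shKDM4B-813, 165 for shKDM4B-814 and 86 for both hairpins. The libraries labelled shCtrl held the most peaks in a stretch chosen for many RH30 peaks, so nothing is read from these ranks. Both flanks had the same order of the labelled groups, so it was not particular to the domain. Before the domain there were 105 and 148 peaks labelled shKDM4B-813, 156 and 182 labelled shKDM4B-814, and 233 and 247 labelled shCtrl. After it there were 59 and 60, 71 and 76, and 95 and 88.

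By the peak names, the order turned for sh813, whose comparison is that of labelled shKDM4B-814 and shCtrl with the sign reversed. The domain then held 231 and 231 peaks with sh813 and 55 and 104 with sh814, against 122 and 165 with shCtrl. The difference was 87.5 for sh813 and −64.0 for sh814 (exact two-sided permutation p = 0.333 each). For both together it was 11.8 (exact p = 1.00), with sh813 and sh814 on opposite sides of shCtrl. By these names all sh813 libraries were above shCtrl in 18.9% of windows and below it in 69.3%. The sh814 libraries were above it in 28.9% and below it in 11.7%, and both hairpins above it in 1.44% and below it in 6.12%. In either grouping the pair of libraries with 231 peaks stood above every other library, and above the DMSO libraries with 92 and 89 peaks. The libraries labelled shCtrl were above DMSO in 15.6% of windows and below it in 73.1%. A ratio to DMSO higher than that of the domain, 2.55, was seen in 39 of 2286 windows. The choice of the domain for many RH30 peaks favours this rank too.

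By label, 64 of 307 domain regions were lost with shKDM4B-813 (20.8%, beside a background of 7.12%), and 2 were gained (0.651%, beside 11.1%). With shKDM4B-814, 45 were lost (14.7%, beside 5.74%) and 2 gained (0.651%, beside 5.71%). With both hairpins 34 were lost (11.1%, beside 4.52%) and 0 gained (0%, beside 3.43%). These comparisons share the shCtrl libraries. The stretch was chosen for many RH30 peaks, and the libraries labelled shCtrl held the most. Regions seen in them only made up 24.5% of domain regions, beside 9.48% over the genome. The choice thus favours lost over gained regions, so nothing is read from these shares against their backgrounds. The strongest lost with both hairpins were chr14:101018029-101018653, chr14:101027531-101029253, chr14:101104150-101105215, chr14:101238388-101240143 and chr14:101997888-101998430, with lowest percentiles of 56.3 to 51.2. A peak too weak to be kept was still present there in 1, 3, 3, 1 and 0 of the 4 deposited hairpin lists, in this order. Of all lost regions, 39 of 64 with shKDM4B-813, 4 of 45 with shKDM4B-814 and 17 of 34 with both had such a peak in a deposited hairpin list. The deposited lists labelled shKDM4B-813 held 140342 and 138884 peaks, and those labelled shKDM4B-814 held 99660 and 93488. With the cut at 93488, the latter could hold few or no weaker peaks. All of these counts thus depend on list length and do not compare the hairpins. The region chr14:101471238-101471616 was gained with shKDM4B-813 at a lowest percentile of 39.4. By the peak names, 45 regions (14.7%) were gained and 2 (0.651%) lost with sh813, beside backgrounds of 5.74% and 5.71%. These are the same regions as with labelled shKDM4B-814, since the same 2 pairs of libraries are compared with the sign reversed. With sh814, 1 (0.326%) was gained and 12 (3.91%) lost, beside 4.86% and 2.59%. With both, 0 (0%) were gained and 1 (0.326%) lost, beside 0.195% and 1.08%. The limit from the choice of the domain holds here too.

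The pooled difference over the compound and hairpin experiments, each KDM4 perturbation against its own control, was −54.5 peaks by label (exact permutation within experiments, p = 0.100, adjusted 0.300, smallest possible p 0.0111). By the peak names it was 11.1 (exact permutation p = 0.733). By label the pooled permutation p was 0.0111 among the 50000 strongest peaks and 0.0333 with −log10 q of 10 or more. By the peak names these were 0.511 and 0.267, with differences of 11.5 and 13.8 peaks. The sign of the pooled value thus followed the grouping of the 6 hairpin libraries.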

How the data were processed

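ATAC-seq peak lists of 14 libraries were analysed. The submitters' processing notes name hg19, MACS2 2.1.1, SAMtools 1.3.1, BWA 0.7.12-r1039 and Picard 1.65. Their settings and the read depth are unknown here. Each library has a list of its own. The authors deposited for each peak a score (not used), a fold ratio over background, −log10 p and −log10 q. Groups and replicate numbers came from the labels.

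Lists were cut to the 93488 strongest peaks by −log10 q. The fold gives the same order as −log10 q. Many peaks tie, 292 to 15215 at the place of the cut, and ties were ordered at random with a fixed seed. A tied peak has the mean percentile of its ties. Regions are peaks merged where they overlap by 1 base. Gained or lost calls used lists of 170390 (LHCN), 105136 (compound) and 93488 (hairpin) peaks. A region is gained if a peak is in all libraries of the treated group and in none of the control, and lost in the reverse case. Peak numbers were compared by exact two-sided permutation over libraries, adjusted by Benjamini-Hochberg. The background is windows of the domain's length with a mean of 10 or more peaks per library, or all regions of the genome. The calling rule was run on simulated lists in which libraries of a group held the same regions. This checks the code, and not the calls on libraries that differ.

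The stretch, members and lists were chosen with earlier results of these data known. Named regions are the 10 strongest in RH30 by median percentile, up to 10 with a peak in at least 3 LHCN libraries, up to 5 gained or lost per direction, the 3 widest and the peaks nearest the limits; of these the text prints most. The order of percentiles at shared regions, the genome-wide share of strong RH30 regions, the grouping by peak names (also at stricter peak limits) and the handling of ties were added after seeing the data. Same-numbered libraries did not deviate together throughout (correlation of replicate differences over 2286 windows from −0.379 to 0.454), so numbers were not taken as pairs. Python 3.11.15, pandas 2.3.3 and numpy 2.4.6 were used.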

Additional observations from a re-analysis of the deposited data

How the results depend on the processing

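Peak numbers kept their direction when any overlap with the domain counted, when lists were used as deposited and when tied peaks were counted by share (15.1 for PAX3-FOXO1 and 11.3 for QC6352). Ranking by fold and keeping distinct intervals give the same lists by construction.

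With the 50000 strongest peaks the difference was −4 for QC6352, −33.5 pooled and 25.05 for RH30 against LHCN. PAX3-FOXO1 then gained 6 regions and lost 1, QC6352 gained 0 and lost 5, shKDM4B-813 gained 0 and lost 27, and shKDM4B-814 gained 1 and lost 25. Outside the main settings under both groupings, no genome-wide share is given for region counts here or below. Such counts show only how the number moves with the setting, and not whether the domain departs from the genome. With −log10 q of 10 or more the difference was −4.5 for QC6352, −24.5 pooled and −1 for RH30 against LHCN. Lost regions were 4 for PAX3-FOXO1, 6 for QC6352 (0 gained), 17 for shKDM4B-813 (1 gained), 20 for shKDM4B-814 and 16 for both hairpins. Strong peaks against absent ones gave 0 gained and 0 lost for PAX3-FOXO1 and QC6352, and 0 gained for either hairpin with 2, 4 and 1 lost for shKDM4B-813, shKDM4B-814 and both.

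With lists as deposited RH30 exceeded LHCN by 154.6 peaks, or 13.3 per 10000, and the PAX3-FOXO1 differences turned to 21.8 bases in median width and 13.6 in percentile, and that of QC6352 to 7.91 in percentile. QC6352 then gained 35 regions, shKDM4B-813 gained 5, shKDM4B-814 gained 1 and lost 104, and both hairpins lost 62. With 50% of a region covered, 79 and 64 were lost with shKDM4B-814 and both. RH30 exceeded LHCN by 65 peaks without the 6 hairpin libraries and by 67.5 with DMSO and vector alone.

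DMSO as control for the hairpins turned the difference to 53 for shKDM4B-814 and 21 for both, with 5 gained and 16 lost for shKDM4B-813, 28 and 8 for shKDM4B-814, and 2 and 4 for both. Grouping by peak names gave 87.5 for shKDM4B-813, 11.8 for both and 11.1 pooled, and with DMSO as control 140.5 and 64.8. Median width then differed by 280.2, 180.2 and 230.2 bases for shKDM4B-813, shKDM4B-814 and both, percentile by 16.2, 11.3 and 13.7, and covered bases by 116854 for shKDM4B-813 and 52596 for both. Gained and lost regions were 45 and 2, 1 and 12, and 0 and 1. By peak names the difference among the 50000 strongest peaks was 60 for shKDM4B-813, 27 for both and 11.5 pooled, and with −log10 q of 10 or more it was 51, 13 (shKDM4B-814), 32 and 13.8. Region counts under the other settings and the values without 1 library are by label. For all of these the cause was not tested.

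Leaving out 1 library at a time, peak number differed by 14 to 17 (PAX3-FOXO1), 5.5 to 15.5 (QC6352), −176 to −127 (shKDM4B-813), −109 to −66 (shKDM4B-814), −137.3 to −100.7 (both hairpins), −63.4 to −45.1 (pooled), 87 to 106.6 (RH30 against LHCN). Median width differed by −53.2 to 52.8 (PAX3-FOXO1), −60 to 257.5 (QC6352), −152.5 to −47.5 (shKDM4B-813), −332.8 to −227.8 (shKDM4B-814), −242.6 to −137.6 (both hairpins), −8.96 to 30.4 (RH30 against LHCN). Covered bases differed by 9222 to 10150 (PAX3-FOXO1), −13414 to 50309 (QC6352), −147160 to −109868 (shKDM4B-813), −135500 to −98208 (shKDM4B-814), −141330 to −104038 (both hairpins), 50568 to 68316 (RH30 against LHCN). Median percentile differed by −7.55 to 2.64 (PAX3-FOXO1), −8.71 to −3.08 (QC6352), −13.6 to 3.79 (shKDM4B-813), −18.8 to −13.5 (shKDM4B-814), −15.3 to −7.76 (both hairpins), −13.8 to −10.2 (RH30 against LHCN). Gained regions numbered 22 to 40 (PAX3-FOXO1), 15 to 69 (QC6352), 2 to 10 (shKDM4B-813), 6 to 28 (shKDM4B-814), 0 to 2 (both hairpins). Lost regions numbered 9 to 14 (PAX3-FOXO1), 15 to 45 (QC6352), 64 to 127 (shKDM4B-813), 56 to 98 (shKDM4B-814), 34 to 80 (both hairpins). Counts moved by over 1.5 times where fewer lists had to hold a peak or to lack one. Gained regions were 40 without PAX3-FOXO1 library 2 and 28 without vector library 2, and 69 and 51 without QC6352 libraries 1 and 2. They were 10, 7 and 5 for shKDM4B-813 without its libraries 1 and 2 and shCtrl library 2, and 28, 12, 6 and 9 for shKDM4B-814 without its libraries 1 and 2 and shCtrl libraries 1 and 2. Lost regions were 14 without vector library 1, and 20, 40 and 45 without QC6352 library 2 and DMSO libraries 1 and 2. Without shCtrl libraries 1 and 2 they were 127 and 115 for shKDM4B-813, 98 and 89 for shKDM4B-814, and 80 and 76 for both hairpins. Without QC6352 library 2 its differences in median width and covered bases turned to −60 and −13414.

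Replicate numbers were also used as a replicate block, with unchanged differences (15.5 for PAX3-FOXO1, 10.5 for QC6352, −151.5, −87.5 and −119.5 for the hairpins, −54.5 pooled), unchanged region counts and p = 0.5 by exact permutation of 4 sign choices, the smallest possible. Crossed numbers for QC6352 and DMSO left 13 gained and 11 lost regions. Groups of 2 and unknown read depth limit every comparison, and a missing peak means that none was among those kept, though a deposited list may hold a weaker one.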
